A study of Mus musculus with 12 samples.

Results

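The 10 genes described here encode transcription factors of T cell activation: Nfatc1, Egr1, Egr2, Nr4a1, Nr4a3, Batf, Irf4, Irf8, Myc and Prdm1. They were chosen by name and not by a rule on their values, though with earlier results of these data known. All 10 were found among the 18929 rows of the deposited table. Each passed the filter on low values, which left 12699 genes for testing. Their RNA was measured in mouse T cells of strain C57BL/6, polarised for 5 days toward the T helper 1 (Th1) fate and then sorted. The study's title concerns mitochondrial metabolism and T cell function, and the table compares 3 libraries labelled Sdhc cKO, a conditional knockout, with 3 control libraries labelled WT. Sdhc encodes a subunit of succinate dehydrogenase, which is complex II of the respiratory chain and an enzyme of the TCA cycle. The sources used here do not give the promoter driving the deletion, the age of the mice or the source of each replicate. The Slc25a1 KO, Slc25a11 KO and empty-vector libraries, 6 of the 12 samples, were not analysed here.

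When a T cell receptor binds its antigen, calcium activates calcineurin, which sends NFAT proteins into the nucleus, while kinase signalling induces the immediate early genes of the EGR and NR4A families. EGR proteins are zinc finger factors, and NR4A proteins are orphan nuclear receptors that restrain activated T cells. BATF, an AP-1 family protein, binds DNA together with IRF4, whose amount follows the strength of the receptor signal, and the pair opens effector genes. MYC drives growth, nucleotide and ribosome production in the dividing cell, and BLIMP1, the product of Prdm1, is a repressor that promotes effector differentiation and is opposed by BCL6.

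All 10 factors had lower mean levels in Sdhc cKO than in control libraries, by modest amounts, and none passed the test over all genes. The largest differences were those of Irf4 and Egr2, at 74.15% and 71.9% of the control mean, and the smallest was that of Nfatc1, at 93.7%. Log2 fold changes ran from -0.45 to -0.09 with a median of -0.24, beside a median of -0.01 over all tested genes, of which 54.1% had negative values. The limma test called 0 of 10 factors and 0 of 12699 genes, or 0% of them, at an adjusted p of 0.05. At an unadjusted p under 0.05 it found 2 of the 10 lower in cKO, Irf8 and Myc, and 0 higher, where it found 1.53% of all tested genes lower and 1.98% higher. edgeR called 0 genes and DESeq2 2 genes (0.0157%), none of them among the 10 factors. With replicate number as a blocking term limma called 1 gene (0.00787%) and 0 of the factors. The libraries also differed in sex-linked transcripts, and with the share of Y-linked reads as a covariate Irf4 and Myc passed, among 826 genes called of 12699 (4.86% lower and 1.65% higher in cKO). Neither passed in that fit without cKO 1 (limma adjusted p = 0.155 and 0.505), though their log2 changes stayed negative, at -0.74 and -0.56.

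The libraries held 18144933 to 21983821 counted reads, and each value in the table is a read count over its library's size factor, termed here a normalised count. Sdhc itself had 1452, 1562 and 1655 normalised counts in cKO, against 1683, 1602 and 1892 in control libraries, so the groups overlapped; gene-level counts do not resolve a deleted exon. Summed reads of Ddx3y, Kdm5d, Uty and Eif2s3y, genes of the Y chromosome, came to 0.207, 193 and 189 RPM in cKO 1, 2 and 3, against 0.0480, 131 and 55.1 RPM in control 1, 2 and 3. Xist, the non-coding transcript that silences an X, stood at 7565, 0 and 2.15 in cKO and at 9780, 2490 and 6406 in control libraries, in the same order. The libraries numbered 1 thus had almost no Y-linked reads in either group, and they stood apart from the other 4 on the first principal component, which held 49.07% of the variance. Markers matched the T cell label: Cd4 had 10680 to 11040 normalised counts in cKO and 10110 to 10940 in control libraries. Cd8a had 52.7 to 252 in cKO and 77.0 to 137 in control libraries. The 6 Th1 genes summed to 10890 to 12130 in cKO and 10980 to 13610 in control libraries. Among them Ifng, the Th1 cytokine, had 858 to 880 in cKO and 1342 to 1461 in control libraries, while the groups overlapped for the receptor gene Il12rb2, with 3803 to 4716 in cKO and 3896 to 4515 in control. RNA was taken from a population of cells, so fewer cells of a type and less RNA per cell cannot be told apart.

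Per exon length, Myc was the most abundant of the 10 factors in both groups, with 1055 ± 123 normalised counts per kb in cKO and 1279 ± 162 in control libraries (SD, n = 3 each). Irf4 came next, with 605 ± 152 in cKO and 816 ± 153 in control libraries. Nfatc1, Batf and Irf8 followed, with means of 498, 410 and 372 per kb in cKO and 531, 477 and 442 in control libraries. Nr4a1 and Egr1 had 203 and 193 per kb in cKO and 233 and 222 in control libraries. At the low end came Prdm1, Nr4a3 and Egr2, with 134, 83.6 and 54.9 per kb in cKO and 157, 107 and 76.3 in control libraries. The order of the means was the same in both groups. In control libraries the ranges overlapped between these neighbours: Nfatc1 and Batf, Batf and Irf8, Nr4a1 and Egr1, Egr1 and Prdm1, Nr4a3 and Egr2. In cKO libraries they overlapped between Irf4 and Nfatc1, Batf and Irf8, and Nr4a1 and Egr1. The ranges of the other neighbours did not overlap.

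**Figure D1:**
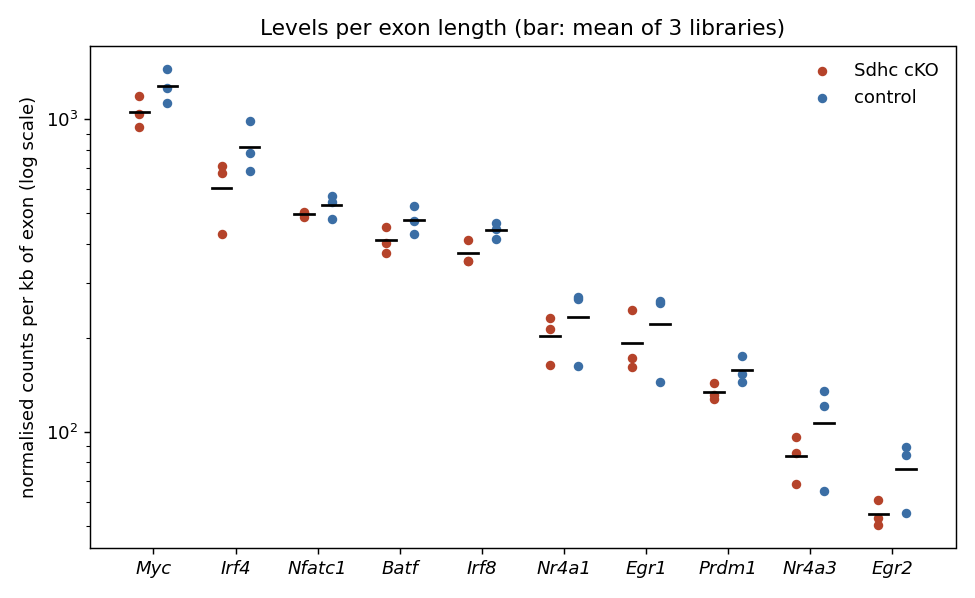
Normalised counts per kb of exon (log scale) of the 10 factors, ordered by the control mean, with Sdhc cKO to the left of control; points are libraries and bars are means of 3. Myc is highest at 1055 per kb in cKO and 1279 in control, and Egr2 is lowest at 54.9 and 76.3.

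Promoter windows from RefSeq (GRCm38.p6) matched 7 of the 10 genes by symbol, as stretches of 300 bases with 250 before and 50 after the transcription start. The windows of Nr4a1, Nr4a3 and Egr2 are shown because these genes varied together between libraries, and that of Irf4 because it passed in fits with a covariate. Letters searched on both strands were TGACG, the half-site of the cAMP response element, GCGNGGGCG, the site of EGR proteins, and the CArG box bound by serum response factor. Capitals mark the matches, and no 2 marked matches overlap within a window.
Nr4a1 (chr15:101266596-101266895, plus strand): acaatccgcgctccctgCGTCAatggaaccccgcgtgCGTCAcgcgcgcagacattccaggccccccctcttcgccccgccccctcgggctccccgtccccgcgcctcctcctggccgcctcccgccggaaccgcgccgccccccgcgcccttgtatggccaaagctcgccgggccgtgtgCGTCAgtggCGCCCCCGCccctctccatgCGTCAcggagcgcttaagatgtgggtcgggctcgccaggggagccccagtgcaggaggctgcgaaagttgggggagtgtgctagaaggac
Nr4a3 (chr4:48045055-48045354, plus strand): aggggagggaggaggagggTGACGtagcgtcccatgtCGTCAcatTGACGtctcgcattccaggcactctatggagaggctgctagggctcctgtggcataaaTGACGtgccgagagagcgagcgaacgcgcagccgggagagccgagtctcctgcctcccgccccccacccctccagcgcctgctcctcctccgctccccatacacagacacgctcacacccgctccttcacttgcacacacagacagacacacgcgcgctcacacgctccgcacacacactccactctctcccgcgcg
Egr2 (chr10:67537619-67537918, plus strand): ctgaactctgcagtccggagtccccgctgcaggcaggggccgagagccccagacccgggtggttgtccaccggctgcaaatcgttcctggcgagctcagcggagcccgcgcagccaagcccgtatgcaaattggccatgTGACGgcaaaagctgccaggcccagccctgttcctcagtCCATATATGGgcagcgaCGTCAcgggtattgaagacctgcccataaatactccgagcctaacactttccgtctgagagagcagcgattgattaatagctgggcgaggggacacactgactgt
Irf4 (chr13:30748983-30749282, plus strand): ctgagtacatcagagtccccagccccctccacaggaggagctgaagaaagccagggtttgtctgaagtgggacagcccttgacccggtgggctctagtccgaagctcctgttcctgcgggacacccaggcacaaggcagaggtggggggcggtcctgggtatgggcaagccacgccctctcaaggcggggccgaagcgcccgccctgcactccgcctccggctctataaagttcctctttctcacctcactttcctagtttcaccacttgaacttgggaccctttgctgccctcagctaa

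The half-site occurred 4 times in the windows of Nr4a1 and Nr4a3 each. At least 1 half-site was in 20.8% of all 32851 windows, and at least 4 were in 0.231%. The Nr4a1 window also held 1 EGR site, which 5.55% of windows did. In the Egr2 window 2 half-sites flanked a CArG box, whose first base lay 72 bases before the start; 1.63% of windows held such a box. RefSeq lists 5 start sites for Egr2, and the window shown is the first of 3 overlapping windows that hold this box. The Irf4 window had no match to these letters, nor to the AP-1 site TGANTCA (7.81% of windows), the E-box CACGTG (7.15%) or the ETS-IRF composite element (2.72%), which were searched as well. The last 3 had 0 matches in the Nr4a1 and Nr4a3 windows too, and the full element TGACGTCA, in 1.79% of windows, had none in the 4 shown. These matches describe the letters in the windows and say nothing of which protein was bound.

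Nfatc1 (chromosome 18, 80606205 to 80713071, minus strand), the inducible NFAT factor at the start of the chain, differed least. It had 3629.7, 3777 and 3743 normalised counts in cKO 1, 2 and 3, against 4063, 4256 and 3584 in control 1, 2 and 3. Control 3 lay below all cKO libraries, so the groups overlapped. The means were 3717 ± 77.2 in cKO and 3967 ± 346 in control (SD, n = 3 each), a log2 change of -0.09 (SE 0.08, 95% interval -0.28 to 0.10). Its spread within groups, an SD of 0.0932 on the log2 scale, was among the lower ones, above that of 20.2% of tested genes. The rest of the NFAT and calcineurin list had 0 of 11 genes called, 8 with negative fold changes and a median of -0.05. Nfatc2, another NFAT factor and among the most abundant genes of the list, had -0.08 (SE 0.08).

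The EGR and NR4A genes separated control 2 and control 3 from the other 4 libraries rather than cKO from control. Control 2 and 3 were also the only libraries with both Y-linked reads (131 and 55.1 RPM) and high Xist (2490 and 6406). Whether this bears on the split was not tested. Egr1 (chromosome 18, 34859823 to 34864984, plus strand), a zinc finger factor induced within the first wave after stimulation, had 725, 774 and 1103 normalised counts in cKO 1, 2 and 3. In control 1, 2 and 3 it had 646, 1160.5 and 1176. Control 1 was thus the lowest of all 6 libraries, and cKO 3 lay near the upper controls. The means of 867 ± 206 in cKO and 994 ± 301 in control gave a log2 change of -0.17 (SE 0.25, 95% interval -0.76 to 0.42; 2-sided exact permutation p = 0.8).

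Egr2 (chromosome 10, 67535475 to 67542188, plus strand), which is known to limit T cell responses as well as to follow receptor signals, differed unevenly between same-numbered libraries. Log2 differences in the pairs numbered 1, 2 and 3 were -0.05, -0.82 and -0.47. Egr2 had 181, 172 and 207 normalised counts in cKO 1, 2 and 3, against 187, 304 and 287 in control 1, 2 and 3. Only control 1 lay within the cKO range. The means were 186 ± 18.1 in cKO and 259 ± 63.1 in control, a log2 change of -0.45 (SE 0.20, 95% interval -0.90 to 0.01). Neither the limma test (adjusted p = 0.978) nor the 2-sided exact permutation test (p = 0.2, where 0.1 is the smallest that 3 against 3 allows) passed.

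Nr4a1 (chromosome 15, 101254269 to 101274795, plus strand), the gene of NUR77 and a common reporter of receptor signalling, had 810, 576 and 749 normalised counts in cKO 1, 2 and 3. Control 1, 2 and 3 had 571, 947 and 934. The log2 fold change was -0.18 (SE 0.21, 95% interval -0.67 to 0.32). Its relative Nr4a3 (chromosome 4, 48045153 to 48086447, plus strand) had 515, 409 and 577 in cKO and 389, 811 and 725 in control libraries, in the same order. Both genes were lowest in control 1 and highest in control 2. Nr4a3 had a log2 change of -0.30 (SE 0.27, 95% interval -0.93 to 0.32), and its highest control was 2.08 times its lowest. Within-group SDs on the log2 scale were 0.417 for Egr1, 0.286 for Egr2, 0.345 for Nr4a1 and 0.440 for Nr4a3, above those of 85.8%, 72.9%, 79.8% and 87.3% of tested genes.

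Within same-numbered libraries, Egr1, Nr4a1 and Nr4a3 were higher in cKO 1 than in control 1, by 0.17, 0.50 and 0.40 on the log2 scale. In the pairs numbered 2 and 3 they were lower in cKO, for Nr4a3 by log2 differences of -0.98 and -0.33. Without both libraries numbered 1, a setting chosen after seeing the data, the fold changes of Egr1, Egr2, Nr4a1 and Nr4a3 were -0.34, -0.65, -0.52 and -0.66. In the libraries kept, Xist stood at 0 and 2.15 in cKO 2 and 3 and at 2490 and 6406 in control 2 and 3. Genotype and sex-linked transcripts cannot be told apart among them. All cKO values then lay below all control values for 9 of the 10 factors, every one but Nfatc1, where 22% of all tested genes did the same with 2 libraries a group. None of the 10 passed in that fit (limma adjusted p = 0.278 to 0.898). The plot of deviations by library shows the EGR and NR4A genes side by side.

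**Figure D2:**
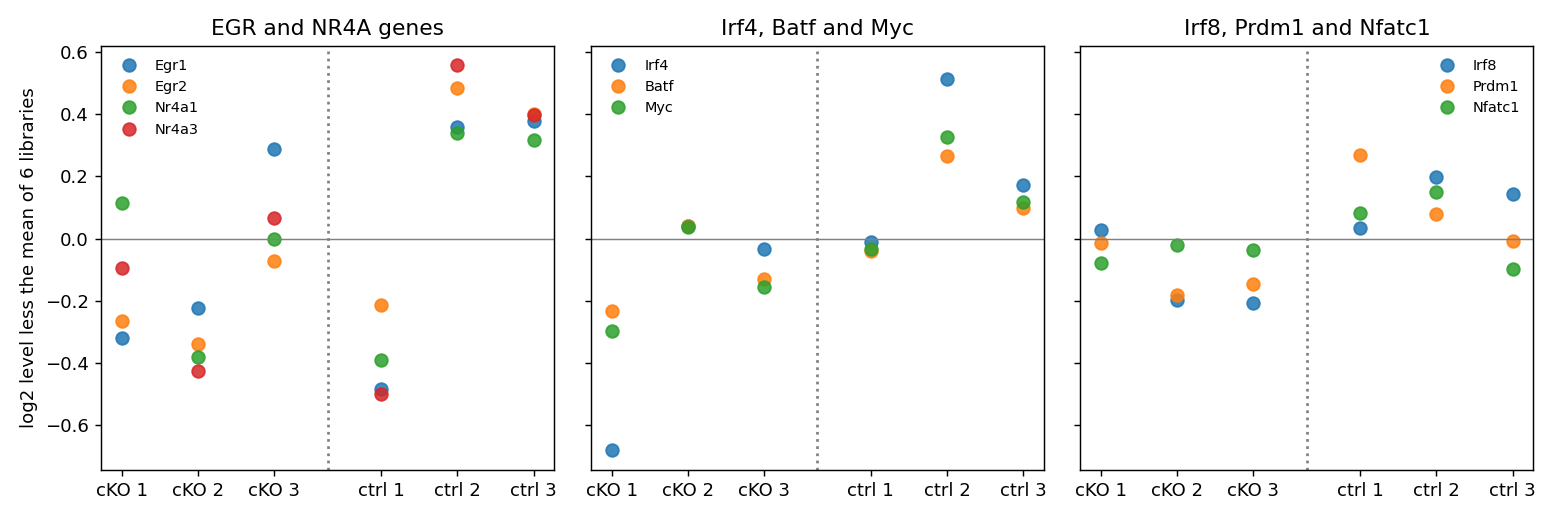
Log2 level of each factor less its mean over the 6 libraries, with cKO 1 to 3 left of control 1 to 3 in each panel; 1 point is 1 gene in 1 library. The EGR and NR4A genes are at -0.21 or lower in control 1 and at 0.32 or higher in control 2 and 3, while Irf4, Batf and Myc are lowest in cKO 1 and highest in control 2.

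Fosb and Egr3 had the same library pattern. Fosb, an AP-1 subunit and immediate early gene, had 15.1, 38.0 and 24.8 normalised counts in cKO 1, 2 and 3, against 12.0, 179 and 195 in control 1, 2 and 3. It had the largest change of the AP-1 list, with a log2 change of -1.61 (SE 0.97, limma adjusted p = 0.978). Without both libraries numbered 1 it passed, at -2.57 (limma adjusted p = 0.0342), as the 1 gene called of 12312. Genotype and the level of Xist cannot be told apart in the libraries kept there. It also passed with edgeR and the Y-linked covariate (edgeR adjusted p = 0.0382), where 3.35% of all tested genes were called lower. It did not pass in limma with the Y-linked covariate (-2.33, adjusted p = 0.0869) or with Xist (-2.48, adjusted p = 0.221). In the Y-linked limma fit without control 1, 4 genes of the AP-1 list were called lower, where 5.55% of all tested genes were. With any other single library left out of that fit, 0 genes of the list were called. The other tested AP-1 genes included Jund at -0.08 (SE 0.13), which turned positive with a covariate, and Junb at -0.18 (SE 0.11). Of 9 tested AP-1 genes 8 had negative values and 0 were called. In the list of EGR and NR4A relatives 4 of 4 tested genes had negative values and 0 were called. Egr3, a paralogue of Egr2 named here after its values were seen, had 136, 178 and 206 normalised counts in cKO and 119, 339 and 337 in control libraries. Nr4a2, the remaining NR4A gene, was near the floor with 7.03, 9.94 and 12.9 normalised counts in cKO and 14.8, 19.6 and 13.2 in control libraries. Nab1 and Nab2, corepressors of EGR proteins, showed log2 changes of -0.25 (SE 0.15) and -0.05 (SE 0.14), of which that of Nab2 turned sign with a covariate in some fits. Nab1 passed with the Y-linked covariate (-0.41, limma adjusted p = 0.0158), where 4.86% of all tested genes were called lower, and no gene of its list passed in that fit without cKO 1 or without control 2.

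Batf (chromosome 12, 85686669 to 85709087, plus strand) had 527, 637 and 566 normalised counts in cKO 1, 2 and 3, against 603, 745 and 663 in control 1, 2 and 3. Each cKO library lay below its same-numbered control, as in 21.8% of all tested genes, while cKO 2 exceeded control 1. The means of 577 ± 55.7 in cKO and 670 ± 71.2 in control (SD, n = 3 each) gave a log2 change of -0.22 (SE 0.11, 95% interval -0.48 to 0.05). In the 3 pairs the differences were -0.19, -0.22 and -0.23.

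Irf4 (chromosome 13, 30749226 to 30766976, plus strand), the partner of BATF, had 2113, 3482 and 3308 normalised counts in cKO 1, 2 and 3. Control 1, 2 and 3 had 3363, 4830.1 and 3816. The lowest value of all was that of cKO 1 and the highest that of control 2, and the groups overlapped only in that cKO 2 lay above control 1. The means were 2968 ± 745 in cKO and 4003 ± 751 in control (SD, n = 3 each). The log2 fold change was -0.45 (SE 0.21, 95% interval -0.93 to 0.03), with a limma adjusted p of 0.978 and a 2-sided exact permutation p of 0.2. Differences in the 3 pairs were -0.67, -0.47 and -0.21.

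Myc (chromosome 15, 61985391 to 61990374, plus strand) followed the same order of libraries. It had 2558, 3222 and 2818 normalised counts in cKO 1, 2 and 3, against 3070.3, 3942 and 3411 in control 1, 2 and 3. Differences in the 3 pairs were even, at -0.26, -0.29 and -0.28. The log2 change of -0.28 (SE 0.12) had a 95% interval of -0.55 to -0.0008 and a limma adjusted p of 0.978. The patterns of Batf and Myc were the most alike of all pairs among the 10, with a root-mean-square difference of 0.0390 between their log2 values after each gene's mean over the 6 libraries was taken off.

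**Figure D3:**
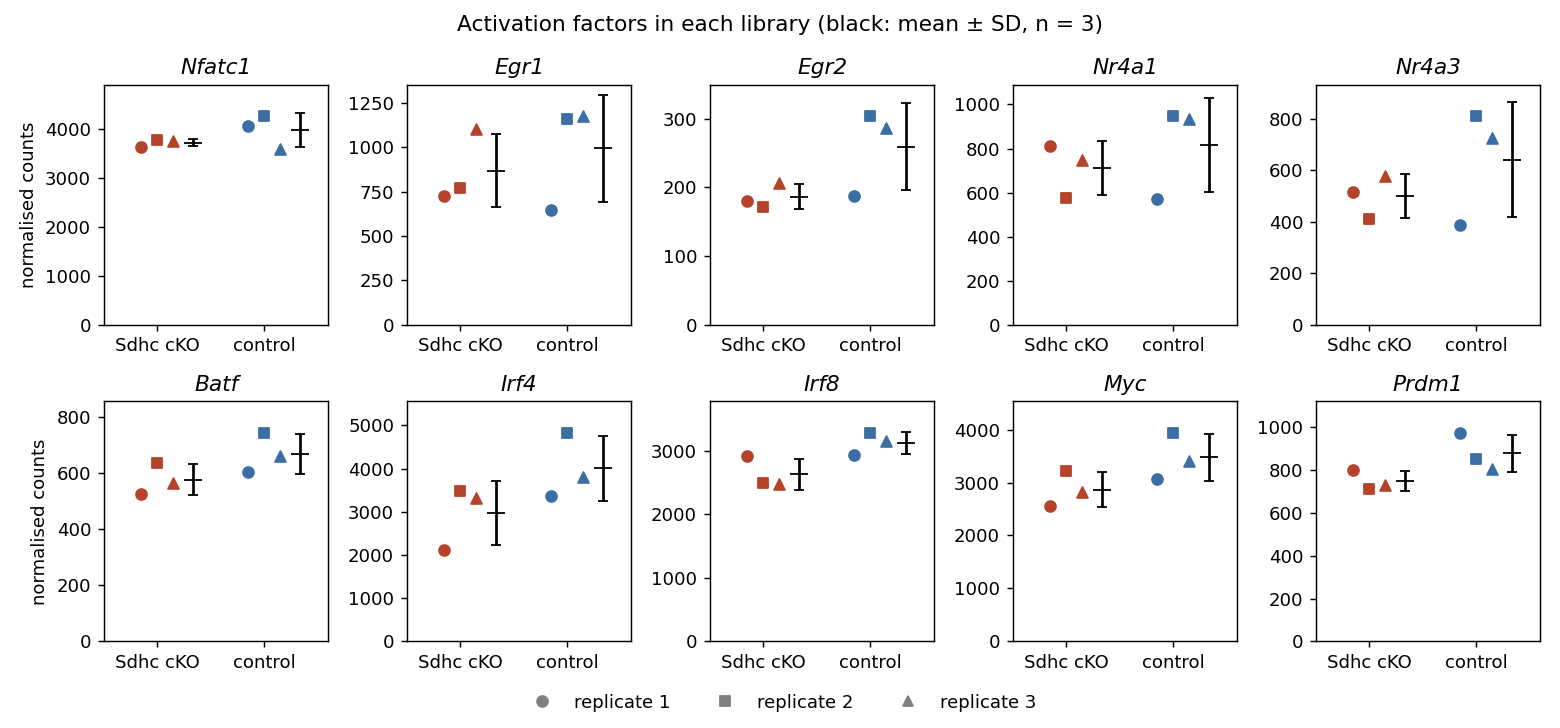
Normalised counts of the 10 factors in each library, Sdhc cKO left of control; the shape of a point gives the replicate number and black bars show mean ± SD (n = 3). The groups do not overlap for Irf8 and Prdm1. For Egr2, Batf, Irf4, Irf8, Myc and Prdm1 each cKO library lies below the control of the same number, as in 21.8% of all tested genes.

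Samples were also compared within the libraries numbered 1, which had almost no Y-linked reads, and within the other 4. Those 4 did not share their sex-linked transcripts: Xist was at or near 0 in cKO 2 and 3 and high in control 2 and 3. For 6 of the 10 factors (Egr2, Batf, Irf4, Irf8, Myc and Prdm1) cKO 1 lay below control 1, and cKO 2 and 3 both lay below control 2 and 3. Over all tested genes 14.8% did so, and 9.81% were higher in cKO in this way. With the share of Y-linked reads as a numeric covariate, which leaves 3 residual degrees of freedom, limma called 2 of the 10 factors lower in cKO, where it called 4.86% of all tested genes lower and 1.65% higher. Irf4 had a log2 change of -0.69 (SE 0.06, 95% interval -0.82 to -0.56, adjusted p = 0.00174) and Myc -0.38 (SE 0.08, 95% interval -0.55 to -0.22, adjusted p = 0.0214). Each was lower in cKO in 3 of 3 same-numbered pairs, as were 21.8% of all tested genes. Batf (-0.30, adjusted p = 0.0615) and Egr2 (-0.55, adjusted p = 0.0852) lay above the threshold of 0.05.

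edgeR on the reads recovered from the table, with the same covariate, called the same 2 factors, Irf4 with an adjusted p of 0.00196 and Myc with 0.0292, where 3.35% of all tested genes were called lower. With the log2 level of Xist in place of the Y-linked share, limma called Irf4 (-0.91, adjusted p = 0.0394) and not Myc (-0.46, adjusted p = 0.0651), where 3.04% of all tested genes were called lower. These fits, and the Y-linked fits with a library left out, were chosen after seeing the data. The calls with the Y-linked covariate depended on single libraries, and the 826 genes called over the whole table were 10 without cKO 1, 561 without cKO 2, 200 without cKO 3, 935 without control 1, 89 without control 2 and 558 without control 3. Without cKO 1 neither Irf4 nor Myc passed, with log2 changes of -0.74 (SE 0.11) and -0.56 (SE 0.13). In that fit 0.016% of genes were called lower. Without control 2, where 0.636% were, Myc did not pass (limma adjusted p = 0.126), while Irf4 did (0.0272). Without control 1, 5 factors passed, Irf4, Myc, Egr2, Nr4a3 and Irf8, where 5.55% of genes were called lower. The covariate tracks the sex-linked transcripts and also the axis that sets the libraries numbered 1 apart, and these cannot be told apart here. It was also unbalanced between the groups, at 193 and 189 RPM in cKO 2 and 3 against 131 and 55.1 RPM in control 2 and 3. The Irf4 estimate with it, -0.69, lay beyond the differences in its same-numbered pairs, -0.67, -0.47 and -0.21. That of Myc, -0.38, lay beyond its -0.26, -0.29 and -0.28. The covariate's part in these estimates was not tested.

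**Figure D4:**
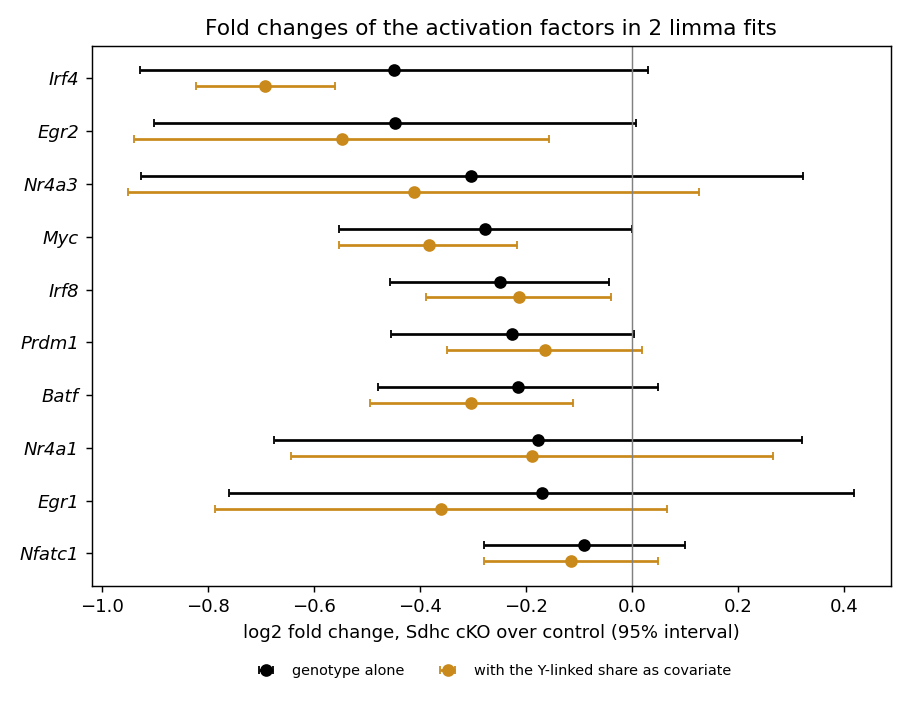
Log2 fold change of each factor, Sdhc cKO over control, with its 95% interval, from limma on genotype alone (black) and with the Y-linked share as covariate (ochre). All 10 estimates are below 0 in both fits; that of Irf4 is -0.45 on genotype alone and -0.69 with the covariate.

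Irf8 (chromosome 8, 120736358 to 120756694, plus strand) is best known from myeloid, dendritic and B cells and is also made by activated T cells. It had 2912, 2494 and 2477 normalised counts in cKO 1, 2 and 3, against 2927, 3279 and 3152 in control 1, 2 and 3. All cKO values lay below all control values, although cKO 1 and control 1 differed by a log2 value of only -0.01. The means were 2628 ± 246 in cKO and 3120 ± 179 in control (SD, n = 3 each), a log2 change of -0.25 (SE 0.09, 95% interval -0.46 to -0.04, limma adjusted p = 0.978, 2-sided exact permutation p = 0.1, the smallest possible).

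Irf8 and Prdm1 were the only factors of the 10 whose groups did not overlap in this way, where 5.64% of all tested genes had all cKO values below all control values. Markers of B, dendritic and myeloid cells were low, and the sums of these 3 lists overlapped between the groups. The 7 of 8 B cell genes that the table held summed to 46.3 to 111 normalised counts in cKO and 67.6 to 84.3 in control libraries. The 8 of 10 dendritic cell genes, led by H2-Ab1 and Cd74, summed to 309 to 368 in cKO and 272 to 487 in control libraries, and the 5 of 7 myeloid genes to 38.9 to 83.4 in cKO and 52.0 to 67.6 in control libraries. Levels differed within the dendritic cell list. Flt3 had at most 1.08 normalised counts in any cKO library and 1.10 in any control library, and Itgax at most 1.96 in any library. Zbtb46 had 54.2 to 64.2 in cKO and 36.1 to 55.9 in control libraries. Xcr1 had 11.05 to 25.83 in cKO and 21.3 to 25.48 in control libraries, and Batf3 had 6.457 to 19.08 and 11.76 to 22.23. The part of dendritic cell transcripts in the difference of Irf8 was not tested. No gene of these lists that the table held was at 0 in all 6 libraries. The natural killer cell genes, mostly Eomes and Klrk1, which T cells also make, summed to 407, 334 and 363 in cKO and 465, 516 and 485 in control libraries. All cKO sums lay below all control sums, and their part in the difference of Irf8 was not tested. The IRF family list, which also holds the corepressor genes Irf2bp1 and Irf2bp2, did not follow Irf4 and Irf8 in sign. In it 1 of 8 tested genes had a negative value, the median was 0.06 and 0 were called. Irf1, an interferon-induced activator, had a log2 change of 0.16 (SE 0.12), the corepressor gene Irf2bp2 had 0.07 (SE 0.07), and Irf7, a driver of type I interferon, had 0.19 (SE 0.13) with all cKO values above all control values (4.51% of tested genes).

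Prdm1 (chromosome 10, 44437177 to 44528501, minus strand) had 802, 714 and 732 normalised counts in cKO 1, 2 and 3, against 975.3, 855 and 805 in control 1, 2 and 3. All cKO values lay below all control values, by a small margin between cKO 1 and control 3. The means were 749 ± 46.8 in cKO and 878 ± 87.5 in control (SD, n = 3 each), with a log2 change of -0.23 (SE 0.10, 95% interval -0.46 to 0.004, limma adjusted p = 0.978, 2-sided exact permutation p = 0.1). Plasma cells also make BLIMP1, and their marker Sdc1, which activated T cells can carry too, had 61.3 to 124.8 normalised counts in cKO and 60.2 to 97.0 in control libraries.

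Bcl6, the repressor that opposes BLIMP1, was the 1 gene of 9 in the list of BLIMP1 partners and opponents with all cKO values above all control values (4.51% of all tested genes), and it is named here after its values were seen. In 2 of the 9, Zeb2 and Tbx21, all cKO values lay below all control values (5.64% of all tested genes). Bcl6 had 173, 136 and 124 normalised counts in cKO 1, 2 and 3, against 116, 108 and 81.4 in control 1, 2 and 3. Its log2 change was 0.50 (SE 0.20, limma adjusted p = 0.978). Zeb2, an effector repressor, had 28.1, 43.4 and 59.2 in cKO and 64.8, 67.6 and 63.8 in control libraries, a log2 change of -0.64 (SE 0.27). The abundant members Xbp1, of the secretory response, and Tcf7, of memory and naive T cells, had 0.04 (SE 0.20) and -0.03 (SE 0.08), and both signs turned under other settings. The list had 0 of 9 genes called and a median of -0.03. With the Y-linked covariate 2 passed, Tbx21 lower (-0.36, limma adjusted p = 0.017) and Xbp1 higher (0.27, adjusted p = 0.0496), where 4.86% of all tested genes were called lower and 1.65% higher. No gene of the list passed in that fit without cKO 1, without cKO 3 or without control 2.

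Among genes that MYC is known to drive, values leaned lower in cKO, to a degree that varied with the libraries kept. Without cKO 1 the share of negative values was near that of all tested genes. They were negative for 26 of 26 tested genes (54.1% of all tested genes), their median was -0.19, and 0 were called. Without cKO 1, 14 of 26 were negative (53.1% of all tested genes) and the median was -0.03. Without control 1, 25 of 26 were negative (52.3% of all tested genes) and the median was -0.32. Without both libraries numbered 1, 23 of 26 were (52.8% of all tested genes), with a median of -0.14. None was called in these 3 fits. Polr1b, a subunit of RNA polymerase I, had the largest value at -0.47 (SE 0.38), with 247, 628 and 458 normalised counts in cKO 1, 2 and 3 and 365, 747 and 700 in control 1, 2 and 3. The most abundant members, the lactate dehydrogenase gene Ldha and the nucleolar gene Npm1, had -0.18 (SE 0.35) and -0.04 (SE 0.11). Ldha had 13449 normalised counts in cKO 1 and 16960.3 in control 1, and at least 25690.3 in each of the other 4 libraries, so the libraries numbered 1 were low in both groups.

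With the Y-linked covariate 14 of the 26 MYC target genes passed, all lower in cKO (limma, 4.86% of all tested genes). For other fits, brackets give the number of all tested genes called lower, of 12500 to 12699 tested. In the same fit the count was 0 without cKO 1 (2), 14 without cKO 2 (436) and 5 without cKO 3 (158). It was 15 without control 1 (696), 3 without control 2 (80) and 11 without control 3 (384). With edgeR it was 12 (425), and with Xist as the limma covariate 5 (386). Among the 14 of the full Y-linked limma fit were the spermidine synthase gene Srm (-0.84, adjusted p = 0.00913), the hexokinase gene Hk2 (-0.71, 0.0101), the pyrimidine synthesis gene Cad (-0.45, 0.0145) and Polr1b (-0.89, 0.0187). The 4 were picked from those 14 after their values were seen. Odc1, which makes polyamines, and Hspe1, a mitochondrial chaperone, were the 2 targets of 26 whose groups did not overlap on genotype alone, where 5.64% of all tested genes had all cKO values below all control values. Odc1 had 4573, 4523 and 4704 normalised counts in cKO and 5359, 5297 and 5209 in control libraries.

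Of 12 tested genes of the MYC network, its partners and antagonists, 9 had negative values, the median was -0.07 and 0 were called. Mycn, a MYC paralogue, had the largest at -0.30 (SE 0.26), and the abundant MAX partners Mxd1 and Mga had -0.08 (SE 0.27) and -0.01 (SE 0.13), with signs that turned under other settings. Max, the binding partner of MYC, passed with the Y-linked covariate (-0.46, limma adjusted p = 0.018), where 4.86% of all tested genes were called lower, and no gene of the list passed in that fit without cKO 1 or without control 2.

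Among 23 activation targets of EGR, NR4A and NFAT proteins 16 had negative values, the median was -0.07 and 0 were called. Havcr2, which encodes the inhibitory receptor TIM-3, had the largest value. Its normalised counts were 42.2, 21.7 and 37.7 in cKO 1, 2 and 3, against 86.1, 61.7 and 71.5 in control 1, 2 and 3, a log2 change of -1.13 (SE 0.28, limma adjusted p = 0.978). All cKO values lay below all control values, as they did for 3 of the 23 genes and 5.64% of all tested genes. It did not pass with the Y-linked covariate, under which 0 of these 23 genes were called. The abundant members Il2ra, the high-affinity IL-2 receptor chain, and Cblb, a ubiquitin ligase that restrains signalling, had -0.12 (SE 0.12) and -0.07 (SE 0.07).

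**Figure D5:**
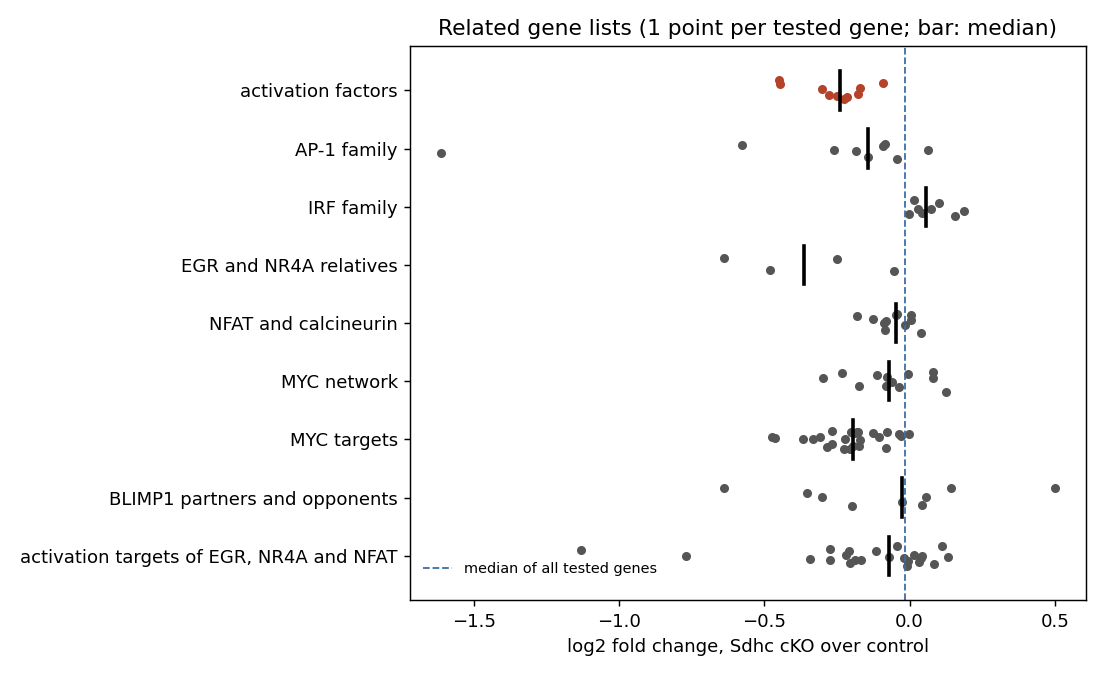
Log2 fold change, Sdhc cKO over control, of each tested gene of the activation factors and of 8 related lists; bars are list medians and the dashed line is the median of all tested genes (-0.01). The medians are -0.24 for the activation factors, -0.19 for MYC targets and 0.06 for the IRF family list.

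Genes most like the factors were sought among 10292 genes with a mean of at least 50, by the root-mean-square difference of mean-centred log2 values over the 6 libraries. For Myc the nearest was Batf (0.0390), and for Nr4a3 it was Nr4a1 (0.140), followed by Trim16 and Egr2 (both 0.154). Irf4 was nearest to Slc43a3 (0.0584), Rcl1 (0.0738) and Fabp5 (0.0752). Egr2 was nearest to Akap12 (0.112) and the stress factor gene Atf3 (0.126), and Egr1 to Haus5. Prdm1 was nearest to Abi2 (0.0285), Batf to Cetn3 (0.0119), Nfatc1 to Twf1 (0.0158) and Nr4a1 to Trim16 (0.112). Values near 0 are easily reached by genes that vary little, and the factors' own SDs over the libraries ran from 0.0886 for Nfatc1 to 0.390 for Nr4a3.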

How the data were processed

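RNA-seq of sorted Th1 cells, 3 Sdhc cKO and 3 control libraries grouped by their titles, was used; RNA was extracted with an RNeasy kit and made into TruSeq libraries, per the labels' protocols. STAR, HTSeq, DESeq2 and the build mm10 are named in the submitters' processing notes; the sources used here give no settings, annotation or strand mode. The deposited table holds signal values, reads divided by the authors' size factor: 100% of values were whole multiples of the smallest one to within 0.01. Reads recovered so summed to 18144933 to 21983821. Nothing in the labels says that replicates were separate animals, so p-values measure library-to-library spread only, part of it possibly technical. That spread also held differences in sex-linked transcripts within each group. Y-linked reads came to 0.207 RPM in cKO 1, against 193 RPM in cKO 2 and 189 RPM in cKO 3. They came to 0.0480 RPM in control 1, against 131 RPM in control 2 and 55.1 RPM in control 3. How much of the spread was technical was not tested.

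The 12699 genes above 10 in 3 or more libraries were tested with limma-trend 3.58.1 (R 4.3.3) on log2(value + 1), a scale that understates changes of low genes, with Benjamini-Hochberg adjustment at 0.05 over all of them; SE is the moderated standard error. The test was checked on simulated data with log2 changes of 1 and 2 in size, where it called 76.5% and 93.8% of the changed genes. Changes as small as those of the factors, and an axis shared by same-numbered libraries, were not simulated. Exact permutation tests were 2-sided. Alternatives were limma-voom, edgeR 4.0.16 and DESeq2 1.42.0, all on reads recovered from the table, other scalings, filters and pseudocounts, array weights, the replicate block, covariates and left-out libraries. Same-numbered libraries deviated from their group means together (correlations across genes of 0.579, 0.458 and 0.188), so the numbers were taken to pair the samples; the pairing comes from this check, the labels do not give it, and cKO 3 correlated more with control 2 (0.272) than with control 3. The 10 factors, the 8 related lists and the 8 marker lists were chosen with earlier results of these data known. Named from each list were the called genes, the 2 most abundant genes and the one with the largest change. A few genes that these rules name are not reported here. Positions and exon lengths come from GENCODE M21 (GRCm38, the assembly of mm10), and promoters from RefSeq. No promoter window is given for Nfatc1, Egr1 and Myc.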

Additional observations from a re-analysis of the deposited data

How the results depend on the processing

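Each of the 10 factors kept a negative fold change and stayed uncalled under all other scalings, filters, tools, pseudocounts, array weights and the replicate block, and with each library left out. With a covariate Irf4 and Myc were called, and Egr2, Nr4a3 and Irf8 as well once control 1 was left out. Nr4a1 ran from -0.944 to 0.0242 when libraries were left out with or without the covariate. Genes called over the whole table, 0 on genotype alone, numbered 2 with DESeq2, 1 with array weights, 1 with the replicate block and 1 without both libraries numbered 1. With a covariate they numbered 826 (limma, Y-linked), 670 (edgeR, Y-linked) and 475 (limma, Xist), the last 2 fits and the one without both libraries numbered 1 being chosen after seeing the data. With a library left out they ranged from 0 to 935, and values above 1 came only with the Y-linked covariate. Factors called, 0 on genotype alone, were 2 with the Y-linked covariate in limma and 2 in edgeR, 1 with Xist, and 0 to 5 with a library left out. Signs of small fold changes turned. Mga turned to 0.001 with TMM, 0.00303 with library totals, 0.0206 with edgeR, 0.0159 with DESeq2, 0.000951 with limma-voom, 0.10 with array weights and 0.12 without both libraries numbered 1. Xbp1 turned to -0.0646 with array weights and -0.0948 without both libraries numbered 1, and Tcf7 to 0.00298 and 0.0163. With the Y-linked covariate Jund turned to 0.062 and Mxd1 to 0.211 in limma, and in edgeR Jund to 0.0858, Nab2 to 0.0201, Mxd1 to 0.242 and Tcf7 to 0.000287. With Xist as covariate Jund turned to 0.197, Nab2 to 0.147, Mxd1 to 0.512 and Irf1 to -0.0334. With single libraries left out Ldha ran from -0.47 to 0.18, Mga from -0.10 to 0.14, Mxd1 from -0.37 to 0.19, Nab2 from -0.17 to 0.0442, Npm1 from -0.11 to 0.0356, Tcf7 from -0.0813 to 0.0159 and Xbp1 from -0.19 to 0.21. The cause was not tested. The array weights stopped before their convergence tolerance was reached. With 3 libraries a group, the widest 95% interval among the factors was that of Nr4a3, from -0.93 to 0.32.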
